A study of Mus musculus with 6 samples.

Results

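The 8 mature microRNAs (miRNAs) described here come from 2 loci on mouse chromosome 12 at which a hairpin is annotated on each strand of the same stretch of DNA. They are both arms of miR-3073a, miR-3073b, miR-203 and miR-203b, chosen by name from the 1542 mature entries of the count table, and all 8 were listed there. The miR-3073b arms came to attention through their difference between the strains in these same libraries, so every strain comparison of the 8 is given as a description and supports nothing further. Kidneys of 17-week-old female mice were sequenced, with 3 libraries from wild-type C57BL/6 mice and 3 from MRL/lpr mice (MRL/MpJ-Fas<lpr>/J), which carry the lpr mutation of Fas on the MRL background and develop a lupus-like disease. Background, mutation and disease differ together between the strains and cannot be told apart, and nothing in the labels says that each library is a separate animal. In whole tissue, fewer cells of a type and less RNA per cell cannot be told apart either.

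A miRNA hairpin is cut from a longer transcript, and its stem yields a 5p and a 3p strand of which usually one is loaded into Argonaute and kept. The loaded strand finds messenger RNAs mainly through its seed, bases 2 to 8 from its 5′ end. Because the complement of a stem can also fold into a stem, a locus read in both directions can give hairpins of different sequence. miR-203-3p is best known from skin, where it represses the stem-cell factor p63 in differentiating keratinocytes. No established role in kidney is assumed here for miR-203b, miR-3073a or miR-3073b.

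The 2 loci were 21557 bases apart. Mir3073a (GRCm38.p6, chr12:112109238-112109322, plus strand) and Mir3073b (chr12:112109250-112109309, minus strand) lay within intron 1 of Aspg, a gene of the asparaginase family on the plus strand, so Mir3073a has the direction of its host and Mir3073b is antisense to it. Mir203 (chr12:112130880-112130955, plus strand) and the miR-203b hairpin (chr12:112130887-112130946, minus strand) lay in no host gene of GENCODE M21. They began 3321 bases or more past the end of Aspg, and the next protein-coding gene, Kif26a, started 15253 bases beyond Mir203. At each locus the minus-strand hairpin of 60 bases was the exact reverse complement of the same window of the plus-strand hairpin.

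The 4 hairpins are shown first, from RefSeq on GRCm38.p6, 5′ to 3′, since the strand and arm comparisons below depend on how the arms face each other. Capitals mark the mature 5p and 3p arms.
miR-3073a: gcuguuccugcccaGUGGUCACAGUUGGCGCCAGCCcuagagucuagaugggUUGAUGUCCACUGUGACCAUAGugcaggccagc
miR-3073b: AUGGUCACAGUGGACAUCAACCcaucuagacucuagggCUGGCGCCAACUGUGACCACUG
miR-203: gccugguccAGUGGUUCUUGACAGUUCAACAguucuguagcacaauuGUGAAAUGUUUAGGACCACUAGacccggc
miR-203b: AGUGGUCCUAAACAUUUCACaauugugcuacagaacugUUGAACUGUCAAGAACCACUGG

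The mature sequences, also from RefSeq with a match for all 8, show which arms share a seed. Capitals mark the seed.
mmu-miR-3073a-5p: gUGGUCACaguuggcgccagcc
mmu-miR-3073b-5p: aUGGUCACaguggacaucaacc
mmu-miR-3073a-3p: uUGAUGUCcacugugaccauag
mmu-miR-3073b-3p: cUGGCGCCaacugugaccacug
mmu-miR-203-5p: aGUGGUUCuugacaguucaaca
mmu-miR-203b-5p: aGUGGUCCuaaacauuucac
mmu-miR-203-3p: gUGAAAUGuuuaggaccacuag
mmu-miR-203b-3p: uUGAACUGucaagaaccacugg

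The 5p arms of miR-3073a and miR-3073b had the same seed, with 7 of 7 bases identical and 16 of 22 over the whole arm. Their 3p arms had 4 of 7 seed bases in common. At the other locus neither arm pair shared a seed fully: miR-203-5p and miR-203b-5p matched at 6 of 7 seed bases, and so did miR-203-3p and miR-203b-3p. Outside the miR-3073 locus, no other mature mouse sequence in the RefSeq table had the seed of any of the 8. Across strands the arms lay opposite each other, 5p facing 3p, over 20 bases in each of the 4 facing pairs.

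**Figure D1:**
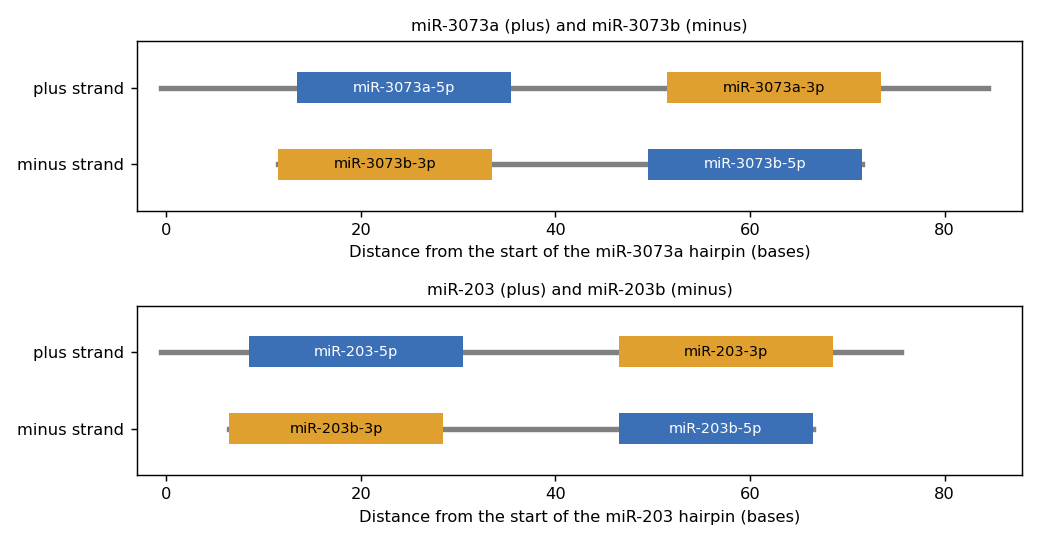
Hairpins (grey lines) and mature arms (blue 5p, yellow 3p) on each strand of both loci, drawn to scale as distance in bases from the start of the plus-strand hairpin. Each arm lies opposite the other arm of the antisense hairpin, with 20 bases facing.

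Library totals ran from 5259528 to 6773829 counts, and levels below are counts as deposited or CPM, counts scaled by TMM to a common library total. One read stands for one mature RNA, so levels were not divided by length. Ligation favours some ends over others, so levels of different miRNAs are less comparable than levels of the same one. The kidney label was checked against miR-192-5p, miR-194-5p, miR-204-5p and 4 other tubular miRNAs, whose summed level was 91812 to 120271 CPM. C57BL/6 replicate 2 stood apart: the summed level of 7 leukocyte miRNAs was 28462 CPM there, against 6033 and 5805 CPM in C57BL/6 replicates 1 and 3 and 9078 to 10666 CPM in MRL/lpr. Its tubular sum was the lowest of the 6. So was the summed level of 4 erythrocyte miRNAs, at 594 CPM against 2841 to 4306 CPM in the other libraries, most of it miR-451a.

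The arm through which miR-203 is known to act, mmu-miR-203-3p, was the most abundant of the 8. Its counts were 1221, 889 and 1327 in C57BL/6 replicates 1 to 3, and the MRL/lpr replicates had 1905, 1772 and 2377. The other arm of the same hairpin, mmu-miR-203-5p, had 325, 189 and 289 counts in C57BL/6 against 505, 350 and 485 in MRL/lpr. For both arms C57BL/6 replicate 2 was the lowest library, and each MRL/lpr library lay above each C57BL/6 library in counts and in CPM.

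On the opposite strand, mmu-miR-203b-5p had 148, 80 and 131 counts in C57BL/6 against 267, 258 and 447 in MRL/lpr. Its partner mmu-miR-203b-3p, with 90 to 160 counts per library, was at 23.9, 14.6 and 24.9 CPM in C57BL/6 against 12.7, 29.1 and 20.9 CPM in MRL/lpr. The 5p arm was thus higher in each MRL/lpr library, while the values of the 3p arm overlapped between the strains.

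At the miR-3073 locus it was the minus strand that was counted. Its 5p arm, mmu-miR-3073b-5p, had 62, 17 and 39 counts in C57BL/6 against 444, 206 and 261 in MRL/lpr. The 3p arm, mmu-miR-3073b-3p, had 11, 4 and 17 counts in C57BL/6 against 87, 58 and 117 in MRL/lpr. Both arms were low in C57BL/6, lowest in replicate 2, and the strains did not overlap for either.

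The plus-strand hairpin of that locus, in the direction of Aspg, was close to the limit of detection. Here mmu-miR-3073a-5p had 3, 1 and 9 counts in C57BL/6 against 9, 3 and 6 in MRL/lpr, and mmu-miR-3073a-3p had 1, 0 and 1 against 0, 0 and 3. A count of 0 allows up to 3 counts, or 0.424 to 0.614 CPM in these libraries, so no fold change is given for either arm. Neither had enough counts to be tested, and a difference between the strains was not detectable at this depth.

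**Figure D2:**
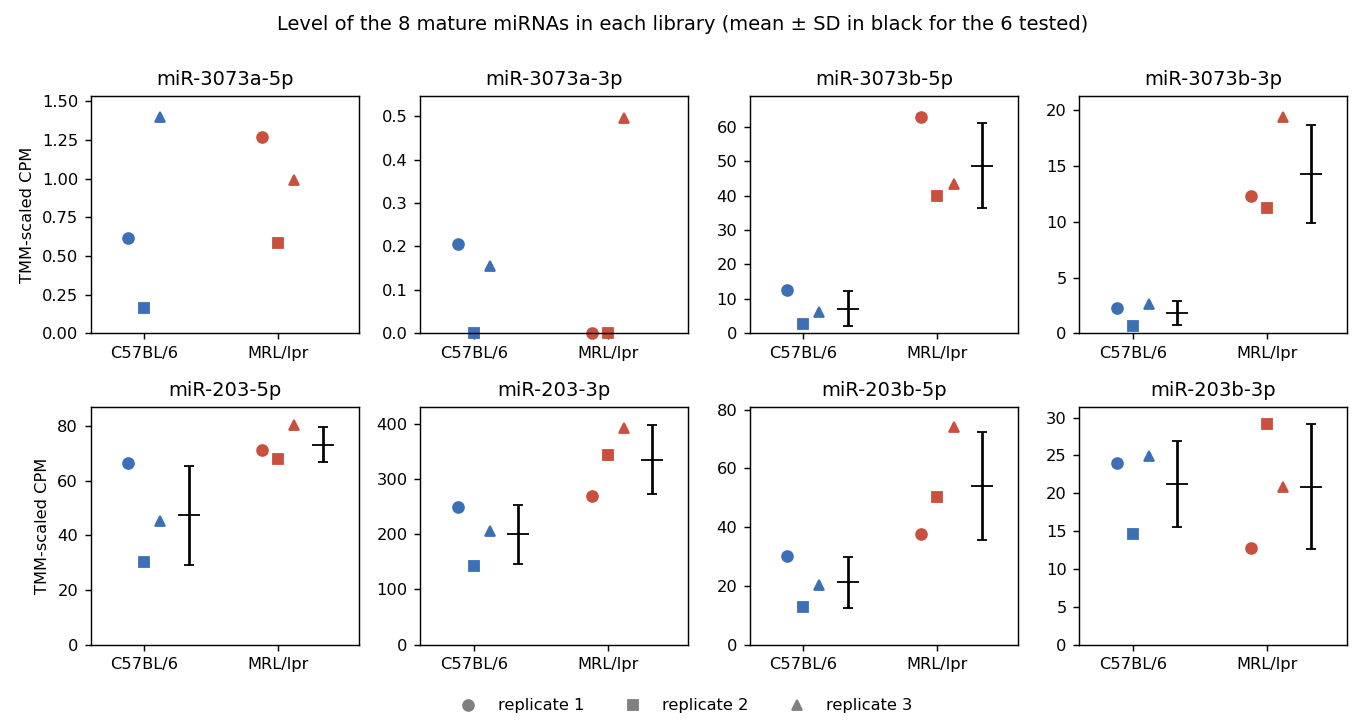
TMM-scaled CPM of each of the 8 mature miRNAs in the 3 C57BL/6 and 3 MRL/lpr libraries, on a linear scale of its own for each panel, with mean ± SD beside the points for the 6 that were tested. Both miR-3073b arms, both miR-203 arms and miR-203b-5p were higher in each MRL/lpr library, whereas miR-203b-3p overlapped.

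The strand that prevailed was not the same at the 2 loci, and at each it was the same in 6 of 6 libraries. At the miR-203 locus the plus strand held most counts, and miR-203b took 14.6%, 13.7% and 15.3% of them in C57BL/6 replicates 1 to 3, against 12.9%, 16.1% and 16.7% in MRL/lpr. These shares had 95% Wilson intervals, which cover counting error only, between 11.7% and 18.0%, and the strains overlapped. The 2 miR-203 arms together were 5.73-fold above the miR-203b arms (mean log2 ratio 2.52 ± 0.16 SD, n = 6 libraries; exact two-sided sign-flip permutation p = 0.03125, the smallest that 6 libraries allow, and 0.0375 after Benjamini-Hochberg adjustment over the 6 strand and arm balances tested).

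At the miR-3073 locus the minus strand held 94.8%, 95.5% and 84.8% of the counts in C57BL/6 replicates 1 to 3, from totals of 77, 22 and 66. It held 98.3%, 98.9% and 97.7% in MRL/lpr, from totals of 540, 267 and 387. miR-3073b lay above miR-3073a by 16.3-fold, 14.3-fold and 5.38-fold in C57BL/6 and by 55.9-fold, 75.6-fold and 39.8-fold in MRL/lpr. The log2 ratio averaged 3.43 ± 0.88 and 5.79 ± 0.46 (SD, n = 3). Over all 6 libraries its direction gave an exact permutation p of 0.03125 (adjusted 0.0375), the smallest that 6 libraries allow. Of these libraries 3 are the MRL/lpr ones in which miR-3073b was selected as high, so nothing further is read from this p. The size of the ratio rests on few counts of miR-3073a: with 5 added to each sum in place of 0.5, the mean over the 6 libraries fell from 4.61 to 3.73 on the log2 scale. The shares of the strains did not overlap, though with 22 counts the 95% Wilson interval of C57BL/6 replicate 2 ran from 78.2% to 99.2% and covered all 3 MRL/lpr values. The 5p arm of the minus strand averaged 7.16 ± 5.07 CPM in C57BL/6 against 48.6 ± 12.3 CPM in MRL/lpr (SD, n = 3), while miR-3073a-5p stayed between 0.161 and 1.40 CPM in all 6 libraries.

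The arms also differed in balance. In miR-203 the 3p arm prevailed in 6 of 6 libraries, with a 5p share of 21.0%, 17.5% and 17.9% in C57BL/6 against 21.0%, 16.5% and 16.9% in MRL/lpr. The mean log2 ratio of 5p to 3p was -2.15 ± 0.19 (SD, n = 6; exact permutation p = 0.03125, adjusted 0.0375). In miR-3073b the 5p arm prevailed in 6 of 6, with shares of 84.9%, 81.0% and 69.6% in C57BL/6 against 83.6%, 78.0% and 69.0% in MRL/lpr. Its mean log2 ratio was 1.82 ± 0.56 (SD, n = 6; exact permutation p = 0.03125, adjusted 0.0375). The balance of miR-3073b was near 3.52 to 1 in both strains, at mean 5p shares of 78.5% ± 7.93 and 76.9% ± 7.35 (SD, n = 3), although its level differed several-fold. The few counts of miR-3073a lay mostly on 5p, 31 counts against 5 in all 6 libraries together. Its 3p arm had 0 counts in 3 of the 6, so the ratio there depends on what is added to the counts, and nothing is read from its test.

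miR-203b was the exception, in that neither arm prevailed in all 6 libraries (mean log2 ratio 0.67 ± 0.88 SD; exact permutation p = 0.15625, adjusted 0.15625, with 4 of 6 libraries above 0). Its 5p share was 55.8%, 46.8% and 45.0% in C57BL/6 replicates 1 to 3, against 74.8%, 63.2% and 78.0% in MRL/lpr. The highest C57BL/6 share, with a 95% Wilson interval of 49.8% to 61.7%, lay below the lowest MRL/lpr share, with an interval of 58.5% to 67.8%, so these intervals overlapped in part. The log2 ratio averaged -0.04 ± 0.34 in C57BL/6 against 1.39 ± 0.54 in MRL/lpr (SD, n = 3). For miR-203 and miR-3073b the same difference between strains was -0.07 and -0.09. Whether the arm balance of miR-203b differed between the strains was not tested, since it belongs to the contrast on which these miRNAs were chosen.

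**Figure D3:**
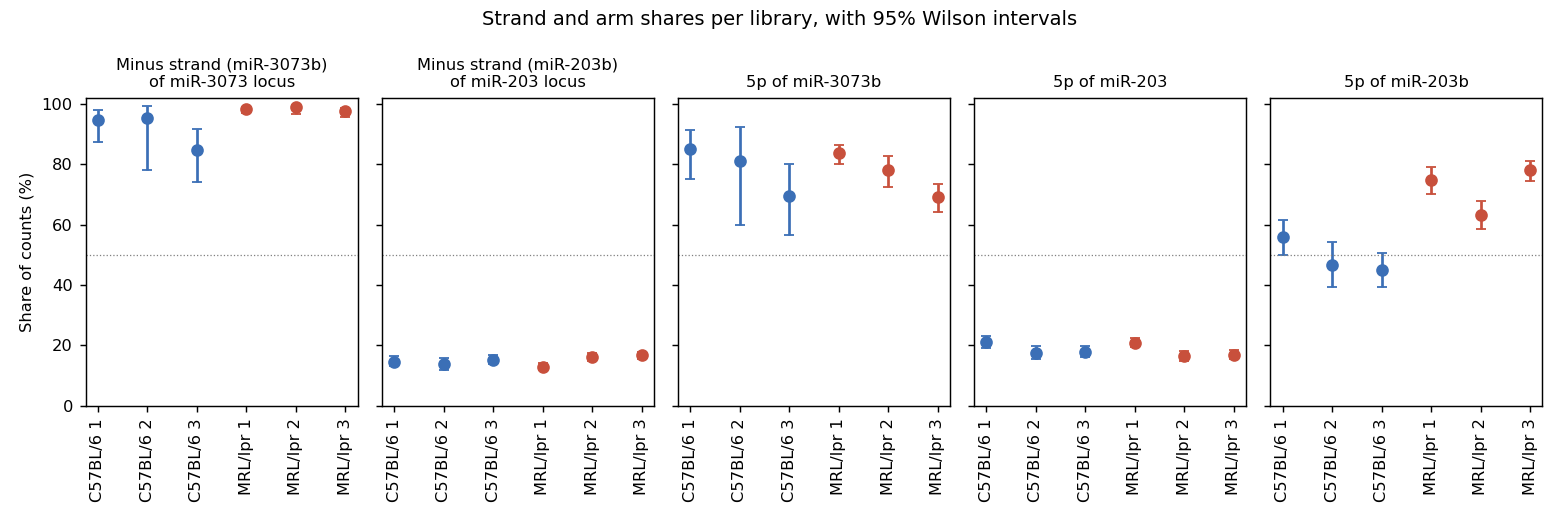
Share of counts, in percent, taken by the minus strand at each locus and by the 5p arm of 3 hairpins in each library, with 95% Wilson intervals (blue C57BL/6, red MRL/lpr, dotted line at equal shares). The minus strand prevails at the miR-3073 locus and the plus strand at the miR-203 locus, and only the 5p share of miR-203b separates the strains among the arm shares drawn.

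Facing arms cover the same bases, so counts made without regard to strand could pass reads from one to the other, and how strand was treated is not stated in the sources at hand. The percentages that follow describe each facing pair and cannot tell passed reads from reads of the arm itself, whether or not they vary. miR-203b-5p amounted to at most 18.8% of miR-203-3p over the 6 libraries, and miR-203b-3p to 17.8% to 55.4% of miR-203-5p. miR-3073a-5p amounted to 5.13% to 52.9% of miR-3073b-3p, from few counts, and miR-3073a-3p to at most 2.56% of miR-3073b-5p. By Pearson correlation of log2(CPM + 1) over the 6 libraries, miR-203b-5p and the facing miR-203-3p had r = 0.991. The facing miR-203b-3p and miR-203-5p had r = 0.254. Arms that do not face each other could also have a high r, as miR-203b-5p had with miR-203-5p (0.930) and with miR-3073b-3p (0.936). The part of strand assignment in these percentages and correlations was not tested.

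Folding the same 60 bases of each locus in both directions with RNAfold gave a lower predicted energy to the plus strand at both. At the miR-203 locus it was -22.0 kcal/mol for the plus strand and -15.4 kcal/mol for the minus strand, and at the miR-3073 locus -32.1 and -25.3 kcal/mol. The plus-strand folds held 3 and 4 G-U pairs, which turn into C-A mismatches in the complement, and the minus-strand folds held 0 and 1. The strand with the lower predicted energy was the more counted one at the miR-203 locus and the less counted one at the miR-3073 locus. The annotated plus-strand hairpins are longer than this window, with -35.1 kcal/mol over 76 bases for miR-203 and -45.8 kcal/mol over 85 bases for miR-3073a. The part of fold energy in the strand counts was not tested.

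In the strain comparison, 6 of the 8 had enough counts to enter the fit over all entries. The 2 miR-3073b arms passed the threshold, an adjusted p of 0.05 in edgeR's quasi-likelihood test over the whole table, and 4 did not. Of all tested entries 28, or 6.21%, passed in either direction, but the miR-3073b arms were selected from those, so nothing is read from the count. miR-3073b-3p was 7.71-fold higher in MRL/lpr, with means of 1.85 ± 1.06 and 14.3 ± 4.42 CPM (SD, n = 3) and a log2 fold change of 2.95 ± 0.50 SE. miR-3073b-5p was 6.88-fold higher (log2 fold change 2.78 ± 0.50 SE). miR-3073b-3p entered the fit through its MRL/lpr libraries, since its C57BL/6 counts were 4 to 17. Without MRL/lpr replicate 3 neither arm passed (log2 fold changes 2.91 for 5p and 2.69 for 3p), and without C57BL/6 replicate 3 the 5p arm did not (2.63).

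The miR-203 locus differed less. miR-203b-5p averaged 21.2 ± 8.74 CPM in C57BL/6 against 53.9 ± 18.5 CPM in MRL/lpr (SD, n = 3), a log2 fold change of 1.35 ± 0.36 SE. miR-203-3p was at 199.8 ± 53.8 and 335 ± 62.7 CPM (log2 fold change 0.75 ± 0.26 SE), and miR-203-5p at 47.3 ± 18.2 and 73.2 ± 6.39 CPM (log2 fold change 0.63 ± 0.29 SE). miR-203b-3p was at 21.2 ± 5.69 and 20.9 ± 8.20 CPM, with a log2 fold change of -0.02 ± 0.34 SE whose sign turned with the scaling and with the library left out. The strains did not overlap for 5 of the 6, all higher in MRL/lpr, where 14% of all tested entries were higher without overlap; nothing is read from this count either. miR-203b-5p lay near the threshold, and passed it without C57BL/6 replicate 1, C57BL/6 replicate 2 or MRL/lpr replicate 1 (log2 fold changes 1.64, 1.12 and 1.59). Read without regard to strand, the sum of all 4 arms had a log2 fold change of 2.69 ± 0.48 SE at the miR-3073 locus and 0.73 ± 0.26 SE at the miR-203 locus.

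For each of the 6 tested miRNAs C57BL/6 replicate 2 was the lowest of its strain in CPM, and leaving it out brought the 5 higher ones closer to 0. Without it the log2 fold changes were 2.43 ± 0.35 SE for miR-3073b-5p, 2.55 ± 0.40 for miR-3073b-3p, 1.12 ± 0.31 for miR-203b-5p, 0.58 ± 0.22 for miR-203-3p, 0.43 ± 0.23 for miR-203-5p, and -0.22 ± 0.31 for miR-203b-3p. The summed level of 5 general epithelial miRNAs (miR-200a-3p, miR-200b-3p, miR-200c-3p, miR-141-3p and miR-429-3p) was also lowest there, at 35704 CPM against 47076 to 56662 CPM in the other libraries. Of the 5, miR-200a-3p and miR-429-3p were themselves lowest in that library, and miR-429-3p made up most of the sum. Some cell type markers also differed between the strains. Of the 7 leukocyte miRNAs 1 was called higher in MRL/lpr and none lower. miR-155-5p had 57.1, 102.3 and 50.9 CPM in C57BL/6 against 174, 145.2 and 200.1 CPM, and miR-142a-3p had 34.4, 88.8 and 25.7 CPM against 144.6, 111 and 151 CPM. The others on that list overlapped between the strains. Among them miR-146a-5p had 5011, 25574 and 4765 CPM in C57BL/6 against 8393, 7314 and 8380 CPM. Like it, miR-150-5p, miR-223-3p and miR-511-3p were highest in C57BL/6 replicate 2. Of the 7 tubular miRNAs 1 was called higher and none lower, miR-204-5p, with 4277 to 5836 CPM in C57BL/6 against 12868 to 17048 CPM. The level of miR-10a-5p went the other way without passing, at 30708 to 35238 CPM in C57BL/6 against 23591 to 27956 CPM. So did that of miR-10b-5p, at 13448 to 14283 CPM against 9373 to 11376 CPM. The values of miR-192-5p, miR-194-5p, miR-30a-5p and miR-196a-5p overlapped between the strains. The part of cell makeup, in that library or between the strains, in the levels of the 8 was not tested.

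**Figure D4:**
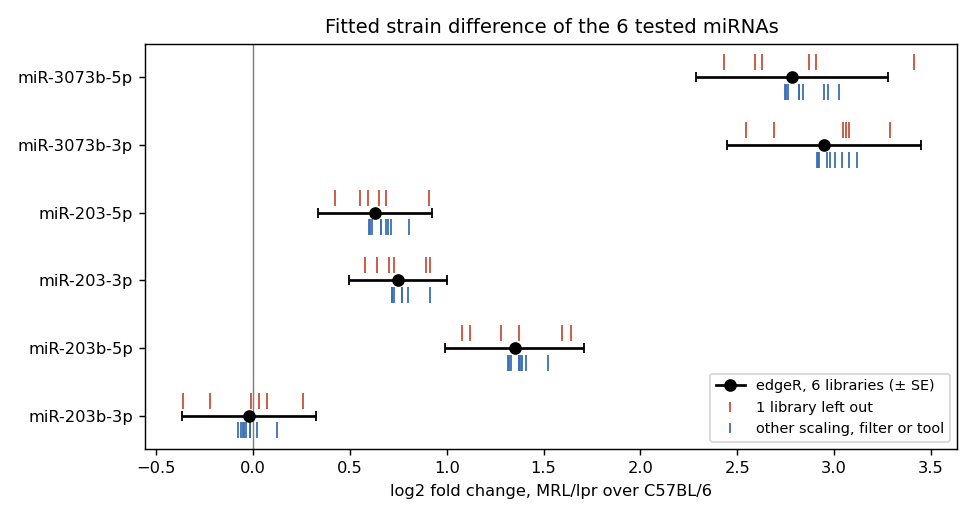
Fitted log2 fold change, MRL/lpr over C57BL/6, of the 6 tested miRNAs with SE (black), with 1 library left out (red ticks) and with other scaling, filters or tools (blue ticks). The miR-3073b arms stay above 2.4 in each setting drawn, and miR-203b-3p lies on both sides of 0.

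Since miR-203 is a miRNA of stratified epithelium, a list of 5 other miRNAs of stratified or transitional epithelium was set beside it. Their summed level ran opposite to that of miR-203, at 79.0 to 119 CPM in C57BL/6 against 47.7 to 56.3 CPM in MRL/lpr, and most of it was miR-31-5p, the 1 member that passed the test, in the lower direction. miR-184-3p leaned the other way, as miR-203 did, at 0, 2.41 and 0.312 CPM in C57BL/6 against 2.12, 6.60 and 2.48 CPM in MRL/lpr, and miR-224-5p overlapped at 2.66 to 6.91 CPM. miR-205-5p, the defining member for basal epithelium, had 4, 78 and 18 counts in C57BL/6 against 31, 1 and 3 in MRL/lpr, and miR-205-3p had 1 count in all. Beside these few counts, miR-203-3p was at 250, 143 and 207 CPM in C57BL/6 replicates 1 to 3 against 269, 344 and 394 CPM in MRL/lpr. The part of other epithelia in the levels of miR-203 was not tested.

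The 3 named miRNAs most like miR-3073b-5p over the 6 libraries, by Pearson correlation of log2(CPM + 1), were miR-802-3p (r = 0.994), miR-802-5p (r = 0.984) and miR-708-5p (r = 0.965). miR-802-5p, a miRNA of kidney and liver, had 72.0, 33.1 and 60.6 CPM in C57BL/6 against 185, 171 and 199.8 CPM in MRL/lpr, so that it too was lowest in C57BL/6 replicate 2. Those most like miR-203-3p were miR-190a-5p (r = 0.985), miR-365-3p (r = 0.984) and miR-378c (r = 0.973). With 6 libraries in 2 strains, such values are set largely by the strain difference and by that 1 library. Among the members, miR-203b-5p followed the facing miR-203-3p (r = 0.991) far more closely than its own 3p arm (r = 0.30). This was not particular to the facing arm. miR-203b-5p also had r = 0.930 with miR-203-5p, 0.936 with miR-3073b-3p and 0.893 with miR-3073b-5p, none of which it faces. miR-3073b-5p and miR-3073b-3p had r = 0.946.

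No other annotated miRNA near the 2 loci was expressed at a level that could be compared. Of 6 mature names from hairpins within 1 Mb, those with a row were miR-6939-3p, with 0 or 1 count in each library, and miR-6940-3p, with 0 to 5.

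To place the strand shares, the other hairpins that overlap by at least 20 bases on opposite strands were taken from the RefSeq table, which gave 22 further pairs with 69 mature names. Of these names 50 were in the count table and 18 were tested, of which 5.56% passed, against 6.21% of all tested entries. One, miR-129-2-3p, passed in the higher direction with 1.18 ± 0.783 CPM in C57BL/6 against 9.13 ± 1.18 CPM in MRL/lpr (SD, n = 3) and a log2 fold change of 2.92 ± 0.50 SE, and none passed in the lower. Like miR-3073b-3p, it entered the fit through its MRL/lpr libraries. The median log2 fold change of the 18 was 0.10, against -0.03 over all tested entries, with 13 of 18 above 0. The abundant members of the list did not pass: the endothelial miR-126a-3p had 75997 ± 6958 and 62428 ± 8440 CPM, the erythroid miR-451a 2303 ± 1517 and 3741 ± 470.2 CPM, and miR-497a-5p 948 ± 326 and 568 ± 84.5 CPM (SD, n = 3). In C57BL/6 replicate 2 miR-451a was at 593 CPM, against 2829 and 3488 CPM in replicates 1 and 3.

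In 6 of the other pairs, with at least 100 counts in every library and mature names from 1 locus only, the less counted strand took 0% to 0.455% of the counts summed over the libraries. Mir451b had no count beside 108248 of Mir451a, and Mir126b had 51 counts beside 2452796 of Mir126a. Mir142b had 33 beside 9446, and Mir3065 had 4 beside 876 of Mir338. The less counted strand took 15.1% at the miR-203 locus (2065 counts, against 11634 on the other strand). It took 2.65% at the miR-3073 locus, with 36 counts in all, but this locus falls short of that depth, with as few as 22 counts in a library. Shallow pairs lay on both sides of that share. Lower were 0% for Mir337 and Mir3544, 0% for Mir873b and Mir873a, and 0.513% for Mir129b and Mir129-2. The share of Mir873b and Mir873a rests on 1 count of Mir873a and 0 of Mir873b. Higher were 2.70% for Mir136 and Mir3071, 4.26% for Mir219b and Mir219a-2, 4.67% for Mir219c and Mir219a-1, and 5.88% for Mir299a and Mir299b. In these higher pairs the less counted strand had 1, 2, 5 and 1 counts, in that order. The pair of Gm51291 and Mir3083 had 50%, from 2 counts on each strand. The Mir5615 pair had 17 counts on each strand and exactly 50% in every library, so its share is not read as a strand balance. Mature names of the Mir129, Mir219 and Mir5615 pairs come from several loci. No test of the difference between these loci and other pairs was made. At the depth of 100 counts in every library, 4 further pairs were set aside because mature names of theirs come from several loci. These were 2 pairs of Mir9, at 20.7%, and 2 of Mir24, at 0.0116% and 0.424%.

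**Figure D5:**
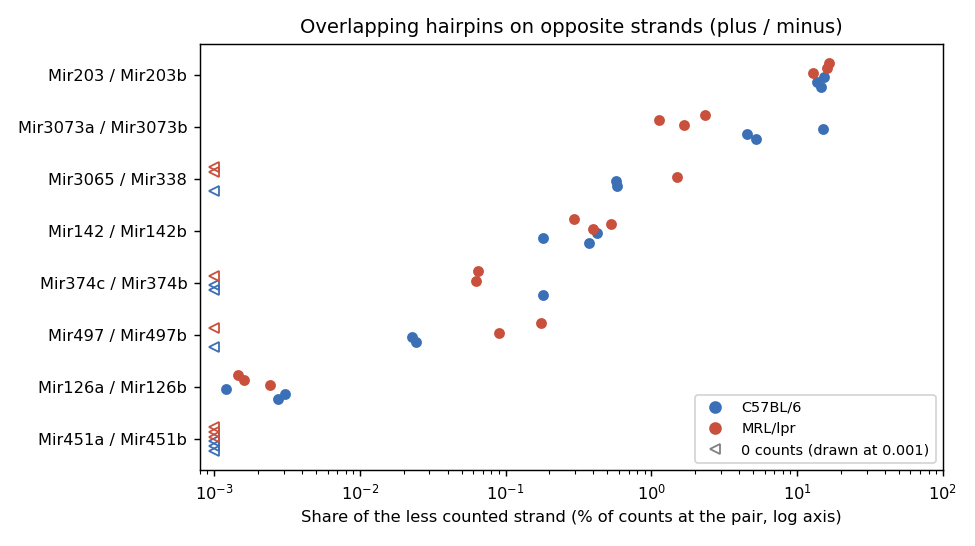
Share of counts, in percent on a log axis, of the less counted strand in each library for the 2 loci and 6 other antisense hairpin pairs, blue for C57BL/6 and red for MRL/lpr, with libraries of 0 counts drawn at the left edge. The 6 other pairs lie mostly below 1%, and the miR-203 pair lies between 12.9% and 16.7%.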

How the data were processed

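Small RNA libraries from kidney total RNA were made with an adapter-ligation kit and gel size selection, per the labels' protocols. Bowtie2, DESeq2 and GRCm38.p6 are named, with no role, in the submitters' processing notes; the annotation, the treatment of reads matching several miRNAs or both strands, and molecular identifiers are not stated in the sources at hand. The table holds deposited counts, whole numbers for each mature miRNA that the authors did not normalize, and 352 of 1542 entries carry no miRBase name.

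Columns were matched to samples by strain code, age and replicate number. The members and lists were chosen with earlier results of these data known. Counts were fitted in R 4.3.3 with edgeR 4.0.16 (filterByExpr with minimum count 10 and minimum total 15, TMM, robust quasi-likelihood, group alone, Benjamini-Hochberg) and tested on simulated data. Strand and arm balances are log2 ratios of counts within a library after adding 0.5, tested by exact two-sided sign flips. Sequences come from RefSeq, host genes from GENCODE M21, and energies from RNAfold 2.7.2. Alternatives used DESeq2 1.42.0, limma 3.58.1, other scalings, filters and pseudocounts, a replicate block, and each library left out. Named miRNAs were the 8 members, the 3 most correlated with the leading member of each locus, neighbours within 1 Mb, and, of the other antisense pairs, those past the threshold and the most abundant. No library was a copy of another of its strain, with 123 to 726 for the chi-square divided by its degrees of freedom. P-values measure only the spread between these libraries, which may be technical. Figures were drawn with matplotlib 3.10.9.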

Additional observations from a re-analysis of the deposited data

How the results depend on the processing

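Adding 1 or 5 to both counts in place of 0.5 cannot turn the sign of a ratio within a library. Where all 6 libraries had the same sign, the exact p could not change either. For those balances these settings bear only on the size of the ratio. With 5 the log2 ratio of the miR-3073 strands was 3.73 (4.61 with 0.5) and that of the miR-3073a arms 0.75 (2.24), both of which rest on few counts. The arm balance of miR-203b, whose libraries differed in sign, did not pass with 1 or 5 either. The strand balances kept their direction and their side of the threshold with the leading mature of each hairpin alone. With 1 library left out, which cannot give a p below 0.0625, the mean log2 ratios were 4.28 to 5.05 for the miR-3073 strands and 2.47 to 2.56 for the miR-203 strands. The arm ratios were then 1.83 to 2.51 for miR-3073a, 1.69 to 1.95 for miR-3073b, -2.19 to -2.11 for miR-203 and 0.44 to 0.86 for miR-203b.

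The 28 calls over all entries became 64 without a filter and 51 with DESeq2, and ran from 5 to 54 with 1 library left out; library-size scaling moved the median of all tested entries from -0.03 to 0.12. The 2 members called became 4 with DESeq2 and ran from 0 to 3 with 1 library left out (1 without C57BL/6 replicate 3, 0 without MRL/lpr replicate 3). miR-3073b-5p passed in 13 of 15 alternatives, miR-3073b-3p in 14, miR-203b-5p in 8, miR-203-3p in 1 and miR-203-5p and miR-203b-3p in 0. The log2 fold change of miR-203b-3p turned positive with library size alone (0.12), with a filter of 10 CPM in 3 libraries (0.0198) and with 1 library left out (-0.36 to 0.26; 0.03 without the first and 0.07 without the third C57BL/6 replicate, 0.26 without MRL/lpr replicate 1). The cause of these changes was not tested. With the replicate number as a block, 13 entries passed instead of 28 and the same number of members, 2. Over all tested entries, same-numbered libraries of the strains did not deviate together (r = -0.37, 0.03 and -0.37). The 5p shares of miR-3073b and miR-203 did run in the same order by replicate number in both strains, and those of miR-203b and miR-3073a did not. The strand share did so at the miR-3073 locus and not at the miR-203 locus. Whether the numbers pair libraries cannot be told from these values. Depth limits miR-3073a, with 36 counts in all libraries, and the C57BL/6 shares at its locus.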
